A study of Mus musculus with 16 samples.

Results

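The alpha, mu and pi classes of cytosolic glutathione S-transferase (GST) were followed in mouse liver through 10 genes, out of 24082 genes in the expression table: Gsta1, Gsta2, Gsta3, Gsta4 and Gm10639 of the alpha class, Gstm1, Gstm2, Gstm3 and Gstm4 of the mu class, and Gstp1 of the pi class. The genes were chosen by symbol, with the effects of treatment and diet on them in these same libraries already known, so that their levels and differences are given as a description, with no p-value. Calls from the fit over all genes are counted for them beside the share of all genes called, and support nothing. All 10 passed the filter on low values, which asked for 4 or more libraries with a deposited value of 10 or more. Gm10639 reached that value in 7 libraries (none of Pair control, 1 of Pair IMC, 2 of EtOH control and 4 of EtOH IMC), and so passed only through the groups in which it was high.

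RNA was sequenced from the livers of 16 female C57Bl6/J mice, 4 in each of 4 groups, with a directional mRNA library per mouse. All were young adults matched for age and weight, received a Lieber-DeCarli liquid diet and were of this strain with no allele named. Ethanol-fed mice (EtOH) drank a diet in which the ethanol concentration was raised in steps, and pair-fed mice (Pair) received maltose dextrin in its place at equal calories. Within each diet the mice received vehicle (control) or iodomethylcholine (IMC), a small molecule that blocks the gut microbial enzyme that cleaves choline to trimethylamine, mixed into the liquid diet. The study describes lower food intake and body weight in mice given both IMC and ethanol, neither of which was analysed here. Libraries numbered 1 to 8 held Pair IMC and EtOH control, and those numbered 9 to 16 held Pair control and EtOH IMC. What the numbering reflects is not stated. It cannot be told apart from IMC within a diet, from ethanol within a treatment, or from the difference between the diets, and only the average of the IMC effects over both diets draws equally on the number ranges.

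Between 9632659 and 12601199 reads per library fell on genes. Levels below are the deposited normalized counts rescaled by a median ratio over all 16 libraries, because the deposited values shifted the median gene by 0.19 on the log2 scale between diets, and by -0.0017 after rescaling. Where 4 values are given for a group, they follow the library numbers, which are 10, 12, 14 and 16 for Pair control, 2, 4, 6 and 8 for Pair IMC, 1, 3, 5 and 7 for EtOH control, and 9, 11, 13 and 15 for EtOH IMC. Hepatocyte markers (Alb, Ttr, Apoa1, Cps1, Serpina1c and Fgb) summed to between 927121 and 1768530.0 per library, their defining genes being present in each. In a whole-liver sample, fewer cells of a type and less RNA per cell cannot be told apart. Errors and p-values measure the spread between the livers of these groups.

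GSTs join the thiol of glutathione to electrophilic compounds, which makes those compounds more water-soluble and ready for export from the cell. The cytosolic enzymes work as dimers within a class, and hepatocytes hold them in large amounts. Alpha class enzymes also reduce lipid hydroperoxides, and Gsta4 favours hydroxynonenal, a reactive product of lipid peroxidation. Mouse Gsta3 conjugates the epoxide of aflatoxin. Gstm1 is the main mu class enzyme of mouse liver, and Gstp1 conjugates many planar electrophiles and binds stress kinases. Several of these genes are textbook targets of NRF2 (Nfe2l2), of the xenobiotic receptors CAR (Nr1i3) and PXR (Nr1i2), and of the aryl hydrocarbon receptor.

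The members lie in 4 places of the mouse genome (GENCODE vM21 on GRCm38). Gsta4 (chr9:78182774-78209349), Gsta1 (chr9:78230656-78242684), Gm10639 (chr9:78289923-78305525) and Gsta2 (chr9:78331018-78355788) share a stretch of chromosome 9, with Gsta2 on the minus strand and the other three on the plus strand. Gsta3 lies alone at chr1:21240589-21265661 on the plus strand. Gstm3 (chr3:107963696-107969283), Gstm2 (chr3:107981702-107986453), Gstm1 (chr3:108012255-108017973) and Gstm4 (chr3:108040408-108044894) are all on the minus strand of chromosome 3, and Gstp1 is at chr19:4035407-4037985, minus strand. Near copies limit what a read can say about some of them. Of the 100-base windows of the longest transcript of Gsta1, 81.8% also occur in a transcript of another gene, 71.3% in the neighbouring Gm3776. The table gives a single row under the symbols Gsta1 and Gm3776, so the level called Gsta1 here cannot be told apart from that of Gm3776. For Gstp1 the share is 52.8%, all of it with Gstp2, for Gsta2 35%, for Gm10639 30%, for Gstm3 13.8%, for Gstm1 7.73% and for Gstm2 0.622%, and no window of Gsta3, Gsta4 or Gstm4 recurred in another gene. How reads from near copies were divided is not given in the sources used here.

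Promoter sequence is shown for the alpha genes at the extremes of the data, Gsta1 and Gm10639, which had the largest differences under IMC and ethanol together, and Gsta3, which had the highest level of its class, with IMC and control overlapping in both diets. RefSeq promoter windows on GRCm38.p6 covered 9 of the 10 members (not Gsta4), and the stretches printed end before the annotated gene. Gsta1 lies at chr9:78230419-78230655 and Gm10639 at chr9:78289678-78289922, both plus strand. Capitals mark the 2 positions at which the aligned bases differ, 228 of 230 aligned bases being identical (99.1%). End bases of either stretch that lie beyond the alignment are not marked.
Gsta1: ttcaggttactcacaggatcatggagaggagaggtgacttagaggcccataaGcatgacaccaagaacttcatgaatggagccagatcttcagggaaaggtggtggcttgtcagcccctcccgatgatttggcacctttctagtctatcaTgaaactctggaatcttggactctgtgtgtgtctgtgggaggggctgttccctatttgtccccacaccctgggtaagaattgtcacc
Gm10639: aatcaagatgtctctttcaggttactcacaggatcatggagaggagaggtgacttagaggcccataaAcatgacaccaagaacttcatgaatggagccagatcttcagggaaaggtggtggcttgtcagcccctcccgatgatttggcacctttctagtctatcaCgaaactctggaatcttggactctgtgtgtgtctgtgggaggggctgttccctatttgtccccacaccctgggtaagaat
Gsta3, from chr1:21240335-21240584, plus strand, carries in capitals the only match, among the windows of the 9 members, to the core of the antioxidant response element, TGACNNNGC, which begins 121 bases before the RefSeq start.
Gsta3: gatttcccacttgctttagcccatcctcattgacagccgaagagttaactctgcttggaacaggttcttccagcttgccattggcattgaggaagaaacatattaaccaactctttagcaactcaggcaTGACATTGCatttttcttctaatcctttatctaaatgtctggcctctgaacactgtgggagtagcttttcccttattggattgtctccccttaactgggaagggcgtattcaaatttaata

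That core was sought on both strands of the 250 bases before the start, where 10.2% of 32851 mouse promoters hold it. The core GCGTG of the xenobiotic response element was found in the windows of Gsta2, Gstm1 and Gstp1, against 28.2% of all promoters. Gstp1 also held TGAGTCA, the core shared by AP-1 and Maf sites, 74 bases before its start, and 4.46% of promoters hold it (this motif was added after the windows were read). There it is followed by gc, and the stretch tgagtcagc departs from TGACNNNGC only by g in place of c. The search allowed only c at that base, so a looser form of the antioxidant core was not sought. A match is a string of letters and not a bound site, and elements farther away lie outside these windows.

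Most members stood higher with IMC, higher with ethanol, and highest with both. In pair-fed mice 2 of 10 members (Gstm1 and Gstp1) passed an adjusted p of 0.05 in the direction of higher with IMC, where 4.32% of 12535 genes did, and none passed lower (5.16% of genes). In ethanol-fed mice 8 of 10 were called higher with IMC (10.4% of genes) and none lower (11.1% of genes), the exceptions being Gsta3 and Gstm2. Averaged over both diets 7 members were called higher with IMC (14.1% of genes) and none lower (14% of genes). With SE, the averaged log2 values were 2.01 ± 0.39 for Gm10639, 1.93 ± 0.44 for Gsta1 and 1.68 ± 0.13 for Gstp1. Those of Gstm1, Gstm3 and Gsta2 were 1.15 ± 0.15, 1.11 ± 0.25 and 0.86 ± 0.32. For Gstm4, Gsta4, Gstm2 and Gsta3 they were 0.42 ± 0.10, 0.34 ± 0.12, 0.29 ± 0.14 and -0.062 ± 0.092. Gm10639, which entered the fit only through the groups in which it was high, is among the 8 and the 7, so 7 and 6 remain without it. Since the members were selected on such values, nothing is read from these counts. The difference between diets in the effect of IMC was called for no member in limma, nor in edgeR or DESeq2, against 0.319% of genes called higher in ethanol-fed mice and 0.79% called lower. Its log2 values were positive for 9 of the 10 and largest for Gm10639 (2.69 ± 0.78, SE) and Gsta1 (2.64 ± 0.87, SE). Without library 6 of Pair IMC the pair-fed count was 1 (Gstp1).

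Ethanol alone was called higher for 5 members (Gsta4, Gstm1, Gstm3, Gstm4 and Gstp1), where 6.33% of genes were called higher and 5.52% lower, and ethanol under IMC for 9, all but Gstm2 (8 without Gm10639), where 7.88% of genes were called higher and 8.61% lower. With the values as deposited, which carry the shift between diets, 7 members were called higher for ethanol alone, but so were 22.3% of genes (1.59% lower), and under IMC 25.4% of genes were called higher and 3.52% lower. The groups did not overlap, IMC above control, for 3 members in pair-fed mice (7.38% of genes above, 6.92% below) and for 6 in ethanol-fed mice (12.3% above, 12.9% below). Ethanol was above pair feeding without overlap for 5 members without IMC (9.94% above, 9.06% below) and for 9 under IMC (9.38% above, 9.83% below). The median log2 fold change over the members was 0.48 for IMC in pair-fed mice, 1.32 for IMC in ethanol-fed mice, 0.91 for ethanol alone and 1.69 for ethanol under IMC, and that over all genes tested lay between -0.0069 and 0.0049 in each of the 6 contrasts. The contrasts share control samples, so their values are set side by side and not compared as independent.

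**Figure D1:**
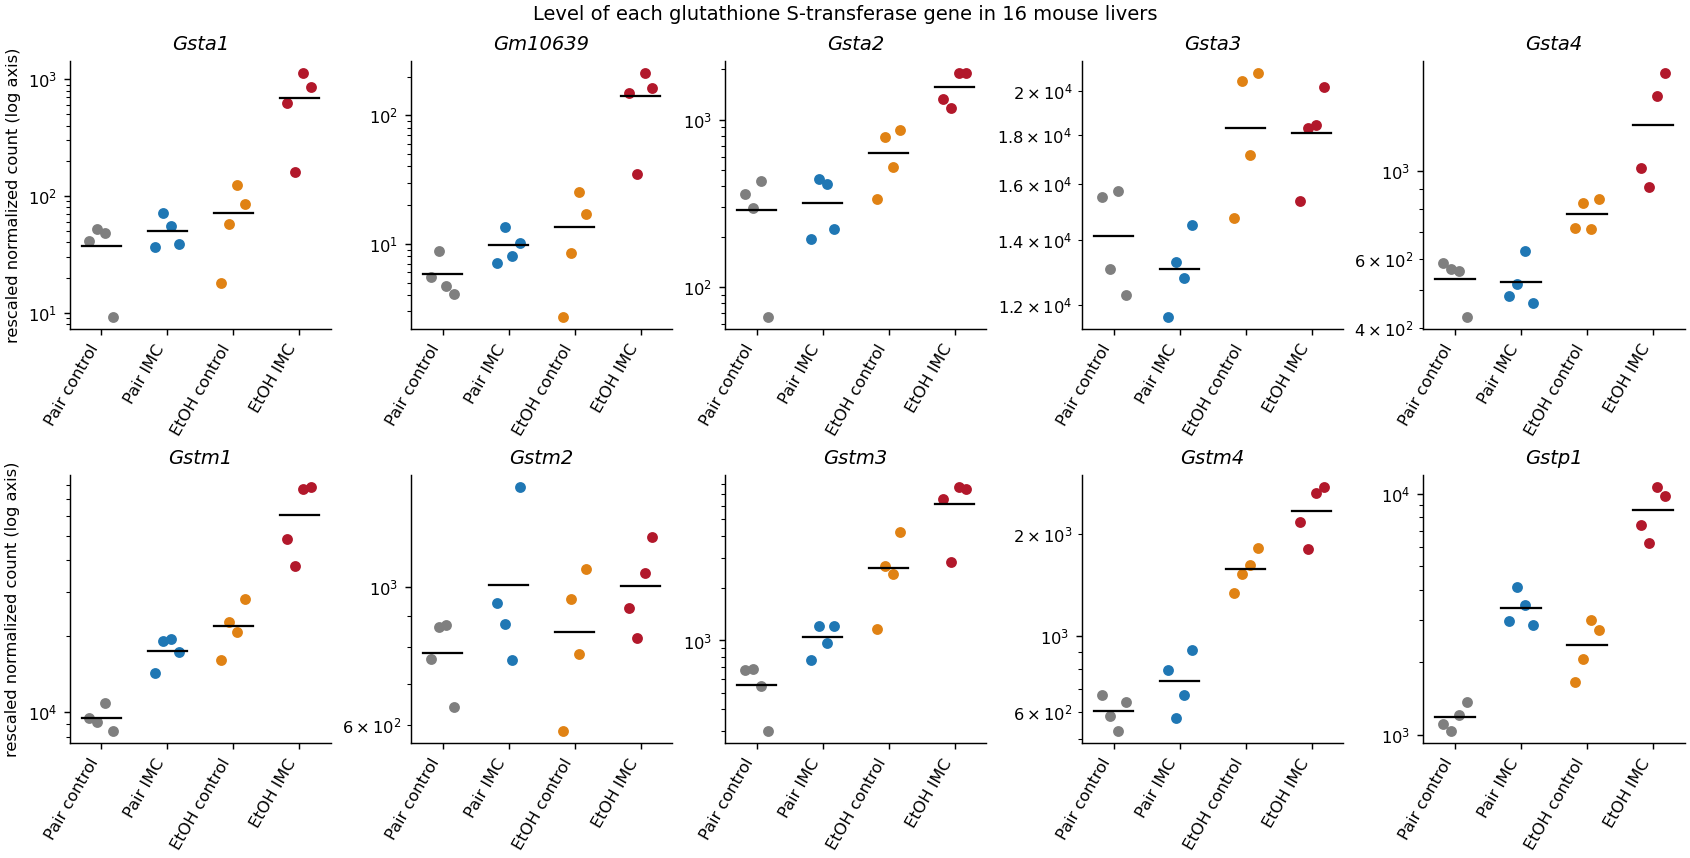
Rescaled normalized count (log axis, a different range in each panel) of the 10 members in the 16 libraries, with the mean of each group as a bar and libraries in order of their number. EtOH IMC stands apart at the top for Gsta1, Gm10639, Gsta2, Gsta4, Gstm1 and Gstp1, and IMC overlaps control in both diets for Gsta3 and Gstm2.

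Gstp1, the pi class enzyme, had the largest log2 difference with IMC of all members in pair-fed mice. Its level was 1107, 1036, 1213 and 1372 in Pair control, 2982, 4103, 3452 and 2853 in Pair IMC, 1658, 2068, 2986 and 2718 for EtOH control and 7461, 6275, 10639 and 9774 in EtOH IMC. No library overlapped between control and IMC within either diet, and the lowest EtOH IMC library was 4.57 times the highest Pair control library. Group means were 1182 ± 146 (SD, n = 4) in Pair control, 3347 ± 565 in Pair IMC, 2357 ± 605 for EtOH control and 8537 ± 2019 in EtOH IMC. The log2 difference with IMC was 1.49 ± 0.18 (SE) in pair-fed and 1.86 ± 0.18 in ethanol-fed mice. That with ethanol was 0.97 ± 0.18 without IMC and 1.33 ± 0.18 under IMC. The ratio of means was thus larger for IMC than for ethanol in either setting. The near copy Gstp2 was counted at 4.29 to 25.2 (group means), and Gstp1 was at least 176 times Gstp2 in every library, which shows the split that counting made and not the true share.

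Gstm1 carried most of the mu class. Its level was 9471, 9144, 10846 and 8403 in Pair control, 14273, 19174, 19492 and 17257 in Pair IMC, 16087, 22869, 20892 and 28103 for EtOH control and 48805, 38137, 77067 and 77946 in EtOH IMC. The 4 groups were ordered from Pair control over Pair IMC and EtOH control to EtOH IMC, with overlap only between the middle ones. Means were 9466 ± 1023 (SD, n = 4), 17549 ± 2397, 21988 ± 4973 and 60489 ± 20131 in that order, a ratio of 6.39 between the outer groups. The log2 difference with IMC was 0.89 ± 0.21 (SE) in pair-fed and 1.42 ± 0.21 in ethanol-fed mice, and with ethanol 1.19 ± 0.21 without and 1.73 ± 0.21 under IMC. Reads on Gstm1 made up 0.0847% ± 0.00989 of all reads on genes in Pair control and 0.564% ± 0.175 in EtOH IMC (SD, n = 4).

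Gstm3, a neighbour of Gstm1, had larger log2 differences with ethanol than with IMC. It stood at 671, 689, 547 and 299 in Pair control, 776, 1208, 970.4 and 1207 in Pair IMC, 1162, 2701, 2420.2 and 4236 for EtOH control and 6515, 2820.2, 7638 and 7522 in EtOH IMC. All ethanol libraries were above all pair-fed libraries of the same treatment, while IMC and control overlapped in ethanol-fed mice through library 7 of EtOH control and library 11 of EtOH IMC. The log2 difference with ethanol was 2.18 ± 0.36 (SE) without and 2.48 ± 0.36 under IMC, and that with IMC was 0.96 ± 0.36 in pair-fed and 1.26 ± 0.36 in ethanol-fed mice. Without library 1 of EtOH control the ethanol-fed value was 0.91 and its call was lost, as it was without library 13 or 15 of EtOH IMC. Gstm4, also of this cluster, stood at 671, 583, 527 and 641 in Pair control, 798, 577, 674 and 915 in Pair IMC, 1338, 1522, 1621 and 1819.7 for EtOH control and 2160.3, 1802, 2635 and 2731 in EtOH IMC. EtOH control and EtOH IMC overlapped, and both were above all pair-fed libraries. Its log2 difference was 1.38 ± 0.15 with ethanol alone and 1.66 ± 0.15 with ethanol under IMC, against 0.28 ± 0.15 with IMC in pair-fed and 0.56 ± 0.15 in ethanol-fed mice.

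Gstm2 was the mu gene that varied least between the groups. It stood at 766, 862, 868 and 643 in Pair control, 945, 871, 765 and 1446 in Pair IMC, 587, 956, 781 and 1070.3 for EtOH control and 924, 829, 1053 and 1204 in EtOH IMC. The groups overlapped throughout, and library 8 of Pair IMC was the highest of all. The log2 differences were 0.33 ± 0.19 (SE) and 0.26 ± 0.19 with IMC in pair-fed and ethanol-fed mice and 0.087 ± 0.19 and 0.023 ± 0.19 with ethanol without and under IMC, each within 2 standard errors of 0 on the log2 scale, and the last was -0.092 under DESeq2. The average of the 2 IMC effects was 0.29 ± 0.14, more than 2 standard errors from 0, and was not called. The ratio of Gstm1 to Gstm2 in the same library, which does not depend on the scaling, averaged 12.1 ± 1.07 (SD, n = 4) in Pair control, 18.6 ± 6.21 in Pair IMC, 26.1 ± 1.52 for EtOH control and 59.2 ± 12.1 in EtOH IMC. Neighbouring genes of one class thus differed in how their levels changed with diet and treatment.

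Gsta1 and Gm10639 had the largest log2 differences of the alpha class in the contrasts that involve EtOH IMC. With ethanol alone Gsta2 had the largest log2 difference, but Gm10639 the largest ratio of means (2.33, against 2.19 for Gsta2). Gsta1, an inducible enzyme that the methods here cannot separate from Gm3776, stood at 41.2, 51.9, 48.1 and 9.16 in Pair control, 36.6, 71.1, 55.1 and 39.1 in Pair IMC, 17.9, 57.7, 124 and 85.7 for EtOH control and 628, 162, 1127 and 855 in EtOH IMC. The 4 EtOH IMC libraries were above all others, but library 11 was far below the other three. Means were 37.6 ± 19.5, 50.5 ± 16, 71.3 ± 44.7 and 693 ± 409 (SD, n = 4) in Pair control, Pair IMC, then EtOH control, EtOH IMC. The log2 difference with IMC was 0.61 ± 0.62 (SE) in pair-fed mice, where groups overlapped, and 3.25 ± 0.62 in ethanol-fed mice. With 1 library left out in turn the former ranged from 0.054 to 0.85 and the latter from 2.71 to 3.85. Without library 11 the latter was 3.85, and the difference between the diets was 3.23 in place of 2.64. With ethanol it was 0.86 ± 0.62 without IMC, with a range of 0.30 to 1.40 over the libraries left out, and 3.50 ± 0.62 under IMC.

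Gm10639, a predicted gene of the alpha class, followed Gsta1 at a lower level. It stood at 5.57, 8.81, 4.69 and 4.07 in Pair control, 7.12, 13.6, 8.02 and 10.1 in Pair IMC, 2.69, 8.55, 25.4 and 17.1 for EtOH control and 149.8, 34.7, 212 and 164 in EtOH IMC. Between 3 and 30 reads lay behind each value outside EtOH IMC, and 41 to 213 within it. The log2 differences were 0.67 ± 0.55 (SE) and 3.36 ± 0.55 with IMC in pair-fed and ethanol-fed mice, and 0.80 ± 0.55 and 3.49 ± 0.55 with ethanol without and under IMC. The ratio of means of EtOH IMC to Pair control was 24.2, and that of Gsta1 was 18.4, the 2 largest of the 10 members. The 2 genes kept a similar ratio, Gsta1 being 6.45 ± 3.33, 5.28 ± 1.23, 5.82 ± 1.03 and 4.85 ± 0.523 times Gm10639 (SD, n = 4) in the groups in the same order. The aligned bases of their promoter stretches, printed above, differ at 2 positions. The 2 genes also share transcript sequence, and the part of the counting in this likeness was not tested.

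Gsta2, the neighbour on the opposite strand and likewise inducible, stood at 358, 297, 427 and 66.2 in Pair control, 194, 441, 411 and 222 in Pair IMC, 334, 791, 522 and 872 for EtOH control and 1326, 1179.6, 1888 and 1886 in EtOH IMC. EtOH IMC was above all other libraries, and library 16 of Pair control was the lowest by far. The log2 difference with IMC was 0.34 ± 0.45 (SE) in pair-fed mice, and turned to -0.26 without library 16. In ethanol-fed mice it was 1.38 ± 0.45, a call lost in 8 of 28 alternatives, 5 of which left out 1 library (1 or 5 of EtOH control, or 9, 13 or 15 of EtOH IMC, the lowest value being 1.11). With ethanol it was 1.33 ± 0.45 without IMC, 0.72 without library 16, and 2.37 ± 0.45 under IMC. Gsta4, the enzyme for hydroxynonenal, stood at 584, 566, 557 and 427 in Pair control, 483, 517, 627 and 464 in Pair IMC, 718, 827, 714 and 847 for EtOH control and 1016, 908, 1539 and 1760.5 in EtOH IMC. Pair control and Pair IMC lay in one range, EtOH control was above both, and EtOH IMC was above EtOH control. Its log2 difference with IMC was -0.029 ± 0.17 in pair-fed and 0.70 ± 0.17 in ethanol-fed mice, and with ethanol 0.55 ± 0.17 without IMC and 1.28 ± 0.17 under IMC. The call for ethanol alone was lost in 12 of 28 alternatives, among them the omission of any 1 library of the groups compared (log2 values of 0.44 to 0.59), and that for the average of the IMC effects in 16 of 27.

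Gsta3, the most abundant alpha gene, did not share this pattern. It stood at 15536, 13064, 15736 and 12285 in Pair control, 11643, 13285, 12800.2 and 14509 in Pair IMC, 14746, 20514, 17160.4 and 20878 for EtOH control and 15363, 18333, 18448 and 20211 in EtOH IMC. IMC and control overlapped in both diets, with log2 differences of -0.11 ± 0.13 (SE) in pair-fed and -0.011 ± 0.13 in ethanol-fed mice, the latter positive (0.08) under quantile normalization. With ethanol its log2 difference was 0.37 ± 0.13 without IMC and 0.47 ± 0.13 under IMC, and ethanol and pair feeding did not overlap under IMC. As deposited these were 0.56 and 0.66. The ethanol call under IMC was lost without library 2 or 6 of Pair IMC or 13 or 15 of EtOH IMC, where the log2 value was at least 0.41.

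**Figure D2:**
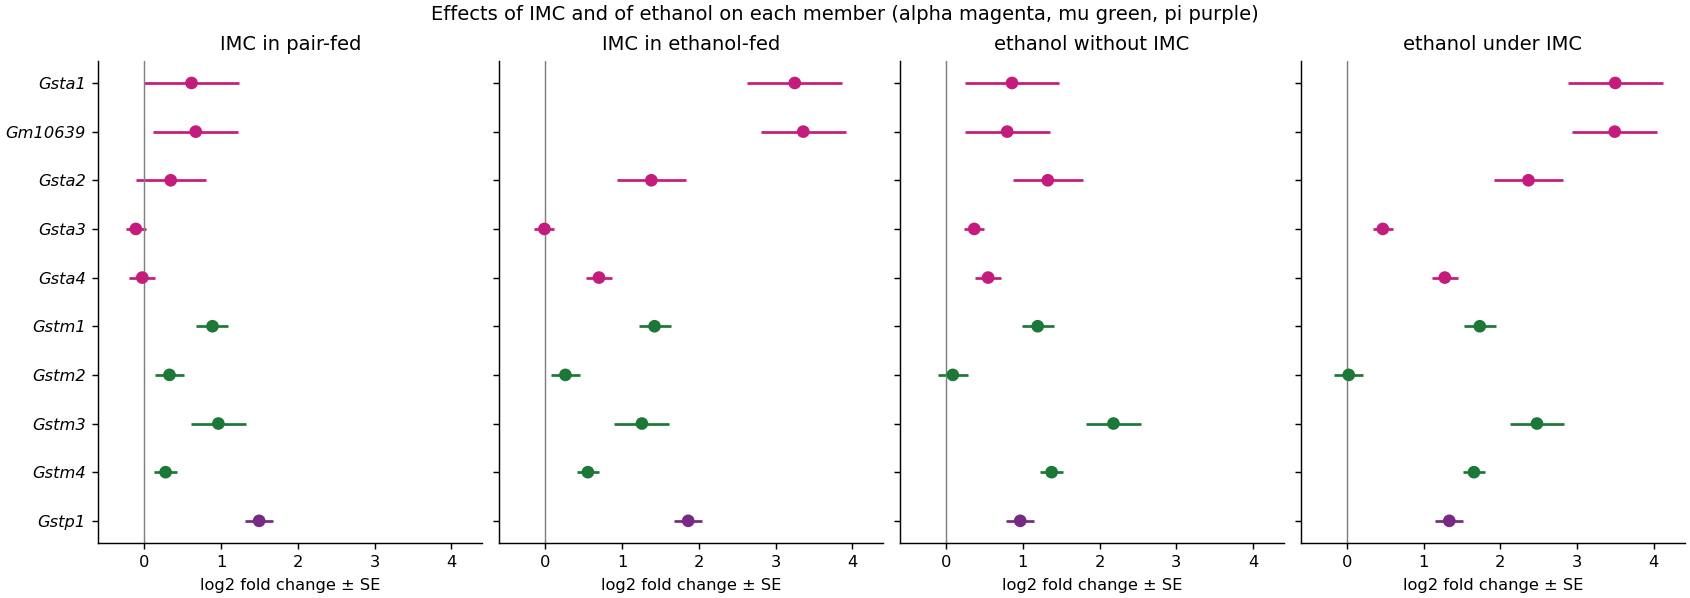
log2 fold change with its standard error (line) of each member in 4 contrasts: IMC against control within each diet, and ethanol against pair feeding without and under IMC. Gsta1 and Gm10639 lie farthest to the right with IMC in ethanol-fed mice and with ethanol under IMC, Gstp1 with IMC in pair-fed mice and Gstm3 with ethanol without IMC. Gsta3 stays near 0 for IMC in both diets, and Gstm2 lies at 0.33 in pair-fed and 0.26 in ethanol-fed mice.

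Of the summed counts of the alpha members, Gsta3 made up 94.3% ± 1.18 of the sum in Pair control and 83.2% ± 4.1 in EtOH IMC (SD, n = 4). The alpha sum was 15019 ± 1947 in Pair control, 13959 ± 1202 in Pair IMC, 19815 ± 3245 for EtOH control and 21798 ± 2819.7 in EtOH IMC. IMC and control overlapped in both diets, with log2 ratios of -0.11 and 0.14. The mu sum was 11408 ± 1151, 20337 ± 2414, 27041 ± 6626 and 69947 ± 22707 in the same order, with log2 ratios of 0.83 and 1.37 for IMC and no overlap. The pi sum is that of Gstp1 alone. Reads on all 10 genes together were 0.247% ± 0.0308 of reads on genes in Pair control, 0.318% ± 0.0337 in Pair IMC, 0.446% ± 0.0855 for EtOH control and 0.936% ± 0.232 in EtOH IMC (SD, n = 4).

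**Figure D3:**
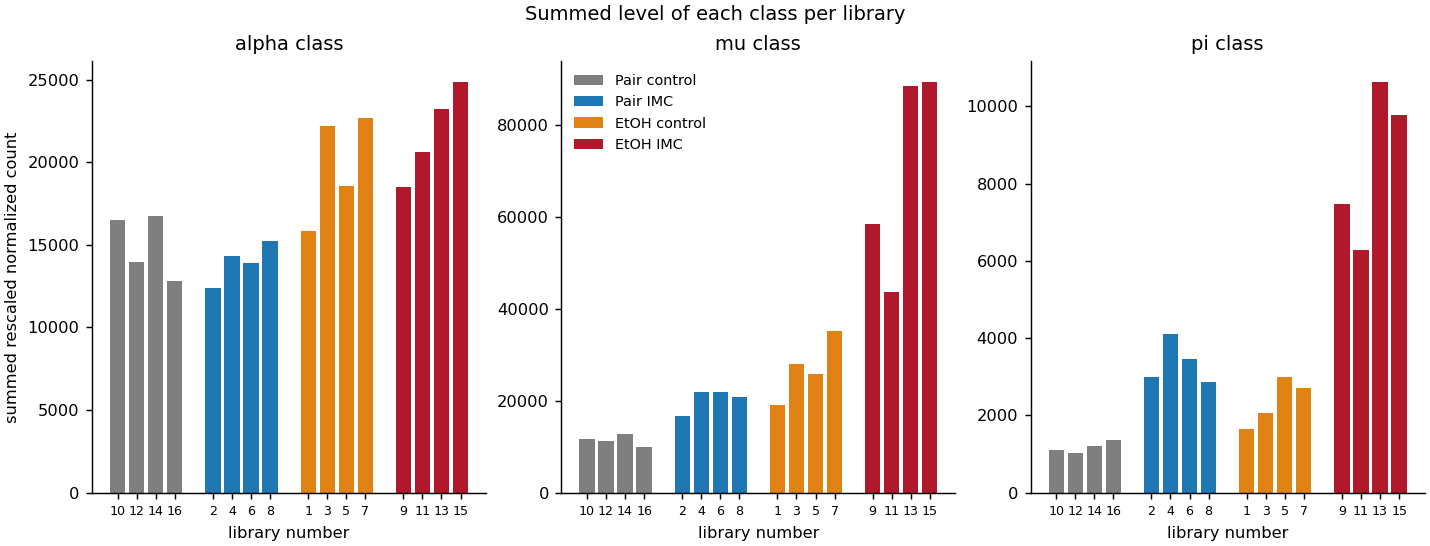
Summed rescaled normalized count of the members of each class in each library (bars from 0, libraries by number within groups, a different vertical range in each panel). The mu and pi bars of EtOH IMC stand above all others, with library 11 the lowest of them, while the alpha bars of IMC and control overlap within each diet.

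Compared per kilobase of merged exon, so that genes of different length can be set against each other, Gstm1 was the highest member in every group, from 6426 ± 694 counts per kilobase (SD, n = 4) in Pair control to 41065 ± 13666 in EtOH IMC. In Pair control it was followed by Gsta3 (3259 ± 401) and Gstp1 (764 ± 94.2), each range apart from the next. Gstm2, Gsta4, Gstm3, Gstm4 and Gsta2 came next with ranges that overlapped from each to the next, then Gsta1 (39.3 ± 20.4) and Gm10639 (5.39 ± 1.96). Pair IMC had the same first 3 genes and the same last 3. In EtOH control Gstm3 took the third place, its range overlapping that of Gstp1. In EtOH IMC Gstp1 (5515 ± 1304), Gstm3 (4671 ± 1723) and Gsta3 (4164 ± 463) followed Gstm1 with overlapping ranges, and Gsta1 (725 ± 427) overlapped both Gsta4 and Gstm2. The order of the low genes therefore changed with diet and treatment, and Gm10639 was the lowest in all 4 groups. The place of Gsta3 depends on the length used. Its merged exons span 4344 bases and its longest transcript 2792, against merged exons of 956 to 1707 bases for the other members. Before division by length, Gsta3 stood above Gstm1 in Pair control (means of 14155 and 9466). The order with other lengths was not computed.

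**Figure D4:**
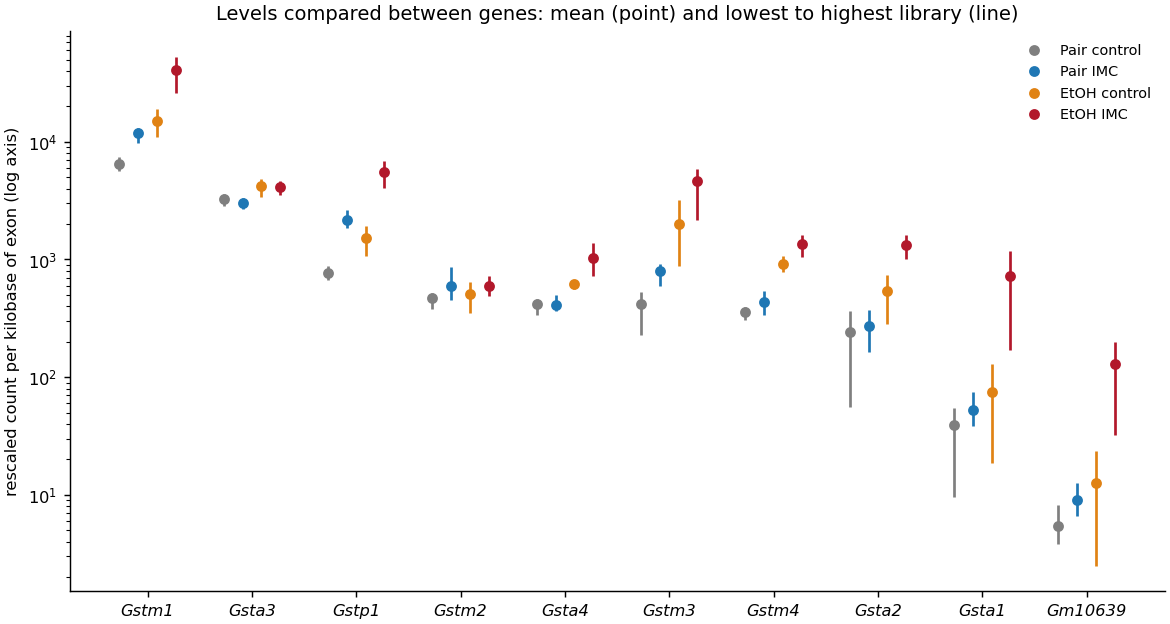
Rescaled count per kilobase of merged exon (log axis) of each member, ordered by its mean in Pair control, with the mean of a group as a point and its lowest to highest library as a line. Gstm1 leads in each group, and Gstp1, Gstm3, Gsta2 and Gsta1 move up past other members in EtOH IMC.

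Within groups the members tended to be low in the same library. Library 11 was the lowest of EtOH IMC for 9 of 10 members, all but Gsta3, and library 1 the lowest of EtOH control for 9, all but Gsta4. Library 16 was the lowest of Pair control for 8 members, and for Gstp1 it was the highest. Over all genes tested library 11 was the lowest of its group for 26.8%, library 1 for 23.5% and library 16 for 28.9%. Members share libraries and near copies share reads, so these counts are not independent.

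Among the other genes tested, those most like the alpha class over the 16 libraries, by Pearson correlation of log2 levels with the mean of the standardized members, were Nqo1 (r = 0.952), Abcc4 (r = 0.949) and Srxn1 (r = 0.935). Those most like the mu class were Fuca1 (r = 0.924), Nqo1 (r = 0.921) and Abcc4 (r = 0.92), and those most like Gstp1 were Slc48a1 (r = 0.963), Ephx1 (r = 0.96) and Tubb4b (r = 0.948). Nqo1 is a quinone reductase, Abcc4 an export pump and Srxn1 a sulfiredoxin. Ephx1, the microsomal epoxide hydrolase, averaged 1591, 5859.6, 4731 and 12674 in Pair control, Pair IMC, then EtOH control, EtOH IMC. The correlations describe libraries that also differ by group, and each library contributes to every gene.

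The other genes of glutathione metabolism were counted from 8 lists holding 77 genes tested, which were drawn up with earlier results of these data known. With IMC, 6 rose and 5 fell in pair-fed mice and 15 rose and 10 fell in ethanol-fed mice, and with ethanol alone 14 rose and 3 fell (limma, adjusted over all genes), or 23 and 0 with the values as deposited. Over all genes the shares called higher and lower were 4.32% and 5.16%, 10.4% and 11.1%, and 6.33% and 5.52% in the same order, and those as deposited 22.3% and 1.59%. Averaged over both diets 17 rose and 13 fell with IMC, where 14.1% of all genes were called higher and 14% lower. Most lists hold few genes, so their counts below are descriptions to be read beside these shares. Gpx2, Gstp2 and Ptges reached a deposited value of 10 in 4, 6 and 9 libraries, mostly or all in the groups in which they were high, so that their calls support nothing. The counts here and below include them. Gpx2 and Gstp2 are among the 15 that rose with IMC in ethanol-fed mice, and Ptges is among the 14 with ethanol alone. Gstp2 and Ptges are also among the 17 of the average. Each value below is a log2 fold change with its standard error. Alternatives number up to 28 per value, 12 other settings and each of the 16 libraries left out in turn. Several IMC calls within a diet were lost in some of them. Averaged over both diets, the calls of Abcc6, Acy3, Cyp4a14, Gclm, Gstk1, Gstt1, Mafg, Ppara and Prdx6 held in all 27 alternatives. That of Abcc2 was lost in 1 (without library 6 of Pair IMC), and that of Gpx1 in 1 (quantile normalization). No gene of these lists was called by limma for the difference between the diets, where 14 had an unadjusted p under 0.05. There edgeR called none and DESeq2 called 2.

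Gclc and Gclm, which together form the enzyme that starts glutathione synthesis, rose with IMC in both diets. Of 5 genes of synthesis tested, 2 rose in pair-fed and 3 in ethanol-fed mice and none fell, with a median of 0.45 and 0.33. Gclc, the catalytic subunit of glutamate-cysteine ligase, which sets the rate of synthesis, stood at 3317, 2013, 2839 and 2848 in Pair control, 5383, 6269, 5304 and 3791 in Pair IMC, 3395, 3287, 3467 and 2548 for EtOH control and 6503, 6209, 10244 and 6664 in EtOH IMC. All IMC libraries were above all control libraries of the same diet, and Gclc rose by 0.91 ± 0.18, adjusted p = 0.00498, in pair-fed and by 1.20 ± 0.18, adjusted p = 0.000244, in ethanol-fed mice. Its regulatory subunit Gclm rose by 0.45 ± 0.10, adjusted p = 0.011, in pair-fed and by 0.33 ± 0.10, adjusted p = 0.025, in ethanol-fed mice, the latter lost without library 3, 5 or 7 of EtOH control or 11 or 13 of EtOH IMC, with an adjusted p of up to 0.0718. Glutathione synthetase, Gss, rose in ethanol-fed mice (0.73 ± 0.20, adjusted p = 0.0135). With ethanol alone Gclc (0.22 ± 0.18) and Gclm (-0.16 ± 0.10) did not pass the test, and Cth, which makes cysteine, rose (0.69 ± 0.17, adjusted p = 0.0134).

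Of 12 genes of glutathione recycling and the peroxidases, 2 rose and 1 fell with IMC in pair-fed mice, 3 rose (Gpx2 among them) and 1 fell in ethanol-fed mice, and 1 rose with ethanol alone. Gsr, which reduces oxidized glutathione, rose by 0.46 ± 0.089, adjusted p = 0.00426, and by 0.78 ± 0.089, adjusted p = 2.25e-05. Gpx4, which reduces phospholipid hydroperoxides, rose by 0.43 ± 0.094, adjusted p = 0.00887, and by 0.47 ± 0.094, adjusted p = 0.00237, in the same order. Gpx1, the abundant cytosolic peroxidase, fell in pair-fed mice (-0.45 ± 0.13, adjusted p = 0.0426), a call lost in 12 of 28 alternatives, 9 of which left out 1 library, with an adjusted p of up to 0.125. Gpx2, best known from the gut epithelium, was low, at 3.34, 12.7, 1.17 and 5.09 in Pair control, 4.07, 0.974, 3.01 and 1.26 in Pair IMC, 0, 4.28, 4.24 and 0 for EtOH control and 5.16, 20.3, 29.9 and 40.7 in EtOH IMC. Its log2 difference with IMC in ethanol-fed mice was 3.14 ± 0.73, between 1.90 and 4.85 over 23 alternatives, and it passed the filter on low values through 3 libraries of EtOH IMC and 1 of Pair control. Prdx6 fell in ethanol-fed mice (-0.37 ± 0.10, adjusted p = 0.016), a call lost without library 3 or 7 of EtOH control and in 1 other alternative, with an adjusted p of up to 0.0524. Glrx rose with ethanol alone (0.36 ± 0.11, adjusted p = 0.0499), a call lost in 19 of 28 alternatives, 13 of which left out 1 library, with an adjusted p of up to 0.143.

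Calls among the remaining cytosolic GSTs went both ways. Of 12 tested, none was called with IMC in pair-fed mice, 2 rose (Gsto1 and Gstp2) and 3 fell in ethanol-fed mice, and 1 rose with ethanol alone. With IMC in ethanol-fed mice Gstk1 of the kappa class fell (-0.44 ± 0.14, adjusted p = 0.0305), as did Gstt1 of the theta class (-0.36 ± 0.12, adjusted p = 0.0322) and Gstz1, which also acts in tyrosine breakdown (-0.45 ± 0.093, adjusted p = 0.00273). The call of Gstk1 was lost without library 1, 3 or 7 of EtOH control or 9 or 13 of EtOH IMC and in 1 other alternative, with an adjusted p of up to 0.105, and that of Gstt1 was lost without library 1, 3 or 7 of EtOH control or 9, 11 or 13 of EtOH IMC and in 3 other alternatives, with an adjusted p of up to 0.102. The log2 difference of Gstp2, which may share reads with Gstp1, was 1.68 ± 0.39 there. Gsto1 rose there (0.26 ± 0.084, adjusted p = 0.0366). It lies outside the rule for named genes and was named after its value was seen. Gstt3 rose with ethanol alone (0.79 ± 0.22, adjusted p = 0.0243), lost without library 16 of Pair control or 3 or 7 of EtOH control, with an adjusted p of up to 0.0788. Of 5 genes tested from the family that holds the membrane GSTs, none was called with IMC within a diet. Ptges, the only one of them called with ethanol alone (1.85 ± 0.57), went from 3.13 ± 2.59 to 11.5 ± 4.31 (SD over 4 libraries). That call was lost in 18 of 27 alternatives, 10 of which left out 1 library, with an adjusted p of up to 0.133.

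Of 8 transporters that export conjugates, 1 fell with IMC in pair-fed mice, 2 rose and 1 fell in ethanol-fed mice, and 3 rose with ethanol alone. Abcc4, of the basolateral membrane, stood at 89.2, 72.4, 75.1 and 38.7 in Pair control, 73.2, 96.5, 113 and 122 in Pair IMC, 148, 219, 279.8 and 279 for EtOH control and 1202, 558, 1396 and 760.2 in EtOH IMC. EtOH IMC was above all other libraries, and Abcc4 rose by 2.03 ± 0.29, adjusted p = 0.000157, with IMC in ethanol-fed mice and by 1.75 ± 0.29, adjusted p = 0.00145, with ethanol alone. Abcc2, the canalicular pump for glutathione conjugates, rose with IMC in ethanol-fed mice (0.50 ± 0.15, adjusted p = 0.0227), a call lost without library 1 or 3 of EtOH control or 13 of EtOH IMC, with an adjusted p of up to 0.0797. Abcc3 (1.14 ± 0.13, adjusted p = 5.46e-05) and Abcg2 (0.41 ± 0.097, adjusted p = 0.0111) rose with ethanol alone. Abcc6 fell with IMC in pair-fed (-0.45 ± 0.11, adjusted p = 0.0171) and ethanol-fed mice (-0.67 ± 0.11, adjusted p = 0.000498), the former lost without library 10 of Pair control or 4 or 6 of Pair IMC and in 1 other alternative, with an adjusted p of up to 0.0666.

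Of 11 genes of glutathione breakdown and of steps that form or deacetylate mercapturates, 2 fell with IMC in each diet, and 3 rose and 1 fell with ethanol alone. Both aminoacylases fell with IMC, Acy1 in pair-fed (-0.77 ± 0.13, adjusted p = 0.00148) and ethanol-fed mice (-0.52 ± 0.13, adjusted p = 0.00774), and likewise Acy3, which deacetylates mercapturates (-0.63 ± 0.16, adjusted p = 0.0176, and -0.74 ± 0.16, adjusted p = 0.00314). The pair-fed call of Acy3 was lost without library 4 or 6 of Pair IMC, with an adjusted p of up to 0.0585. With ethanol alone Ggt6 (1.14 ± 0.18, adjusted p = 0.00119), Acy3 (0.53 ± 0.16, adjusted p = 0.034) and Lap3 (0.49 ± 0.11, adjusted p = 0.00792) rose, the call of Acy3 being lost without library 10 or 12 of Pair control or 1, 3 or 7 of EtOH control and in 1 other alternative, with an adjusted p of up to 0.096. Chac2, which degrades glutathione, fell (-0.37 ± 0.11, adjusted p = 0.0359), a call lost without library 10, 14 or 16 of Pair control or 3, 5 or 7 of EtOH control and in 4 other alternatives, with an adjusted p of up to 0.244.

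Of 14 regulators tested, 1 rose and 1 fell with IMC in pair-fed mice, 2 rose and 2 fell in ethanol-fed mice, and 2 fell with ethanol alone. Nfe2l2, which encodes NRF2, stood at 1244, 990.4, 1238 and 1148 in Pair control, 927, 1251, 1252 and 1061 in Pair IMC, 1053, 994, 1027 and 1123 for EtOH control and 887, 903, 1096 and 1172 in EtOH IMC. Its groups overlapped, with -0.046 ± 0.11, adjusted p = 0.836, and -0.057 ± 0.11, adjusted p = 0.751, for IMC in pair-fed and ethanol-fed mice. Its repressor Keap1 was at -0.19 ± 0.083, adjusted p = 0.171, and 0.13 ± 0.083, adjusted p = 0.263, and Nr1i3, the gene of CAR, at 0.075 ± 0.16, adjusted p = 0.813, and -0.38 ± 0.16, adjusted p = 0.104. Hnf4a, a hepatocyte factor, rose with IMC in both diets (0.71 ± 0.13, adjusted p = 0.00322, and 0.62 ± 0.13, adjusted p = 0.00298), and Mafg, a partner of NRF2, fell in both (-0.34 ± 0.099, adjusted p = 0.0362, and -0.33 ± 0.099, adjusted p = 0.0254), the former lost in 8 of 28 alternatives, 7 of which left out 1 library, with an adjusted p of up to 0.0946, and the latter lost without library 3 or 7 of EtOH control or 9 or 15 of EtOH IMC and in 2 other alternatives, with an adjusted p of up to 0.0881. Nr1i2 rose (0.33 ± 0.084, adjusted p = 0.0102) and Ppara fell (-0.50 ± 0.14, adjusted p = 0.0199) with IMC in ethanol-fed mice, the latter lost without library 5 or 7 of EtOH control or 15 of EtOH IMC and in 1 other alternative, with an adjusted p of up to 0.0699. With ethanol alone Ppara (-0.48 ± 0.14, adjusted p = 0.0378) and Nr1i2 (-0.27 ± 0.084, adjusted p = 0.0427) fell, the first lost without library 10 or 14 of Pair control or 1, 3 or 7 of EtOH control and in 3 other alternatives, with an adjusted p of up to 0.157, and the second lost in 13 of 28 alternatives, 8 of which left out 1 library, with an adjusted p of up to 0.496. The activity of these proteins is not measured by their transcripts.

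Of 10 genes that respond to those regulators, 1 rose with IMC in pair-fed mice, 3 rose and 1 fell in ethanol-fed mice, and 4 rose with ethanol alone. Nqo1, a marker of NRF2 activity, stood at 138, 136, 159.6 and 134 in Pair control, 159.6, 170.5, 172 and 154 in Pair IMC, 184, 312, 269.7 and 357 for EtOH control and 507, 439.8, 607 and 527 in EtOH IMC. It rose with IMC in ethanol-fed mice (0.92 ± 0.15, adjusted p = 0.000576) and with ethanol alone (0.94 ± 0.15, adjusted p = 0.00142), and in pair-fed mice its difference with IMC was 0.21 ± 0.15, adjusted p = 0.428. Srxn1 did likewise, with 1.14 ± 0.17, adjusted p = 0.000192, 1.002 ± 0.17, adjusted p = 0.00155, and 0.26 ± 0.17, adjusted p = 0.36, in the same order, and Txnrd1 rose with IMC in ethanol-fed mice (0.66 ± 0.098, adjusted p = 0.000244). Cyp2b10, a marker of CAR activity, stood at 66.9, 63.6, 89.2 and 57 in Pair control, 68.1, 53.6, 32.1 and 74.3 in Pair IMC, 3528, 3031, 2765 and 6433 for EtOH control and 6441, 1463, 5347 and 4745 in EtOH IMC. It rose by 5.75 ± 0.37, adjusted p = 1.39e-07, with ethanol alone, while its difference with IMC was -0.32 ± 0.37, adjusted p = 0.628, in pair-fed and 0.083 ± 0.37, adjusted p = 0.898, in ethanol-fed mice. Cyp3a11 rose with ethanol alone (0.64 ± 0.15, adjusted p = 0.0103) and fell with IMC in ethanol-fed mice (-0.64 ± 0.15, adjusted p = 0.00521), and Cyp4a14 rose with IMC in pair-fed mice (1.24 ± 0.30, adjusted p = 0.0166), lost without library 12 of Pair control or 4 or 6 of Pair IMC, with an adjusted p of up to 0.0579.

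**Figure D5:**
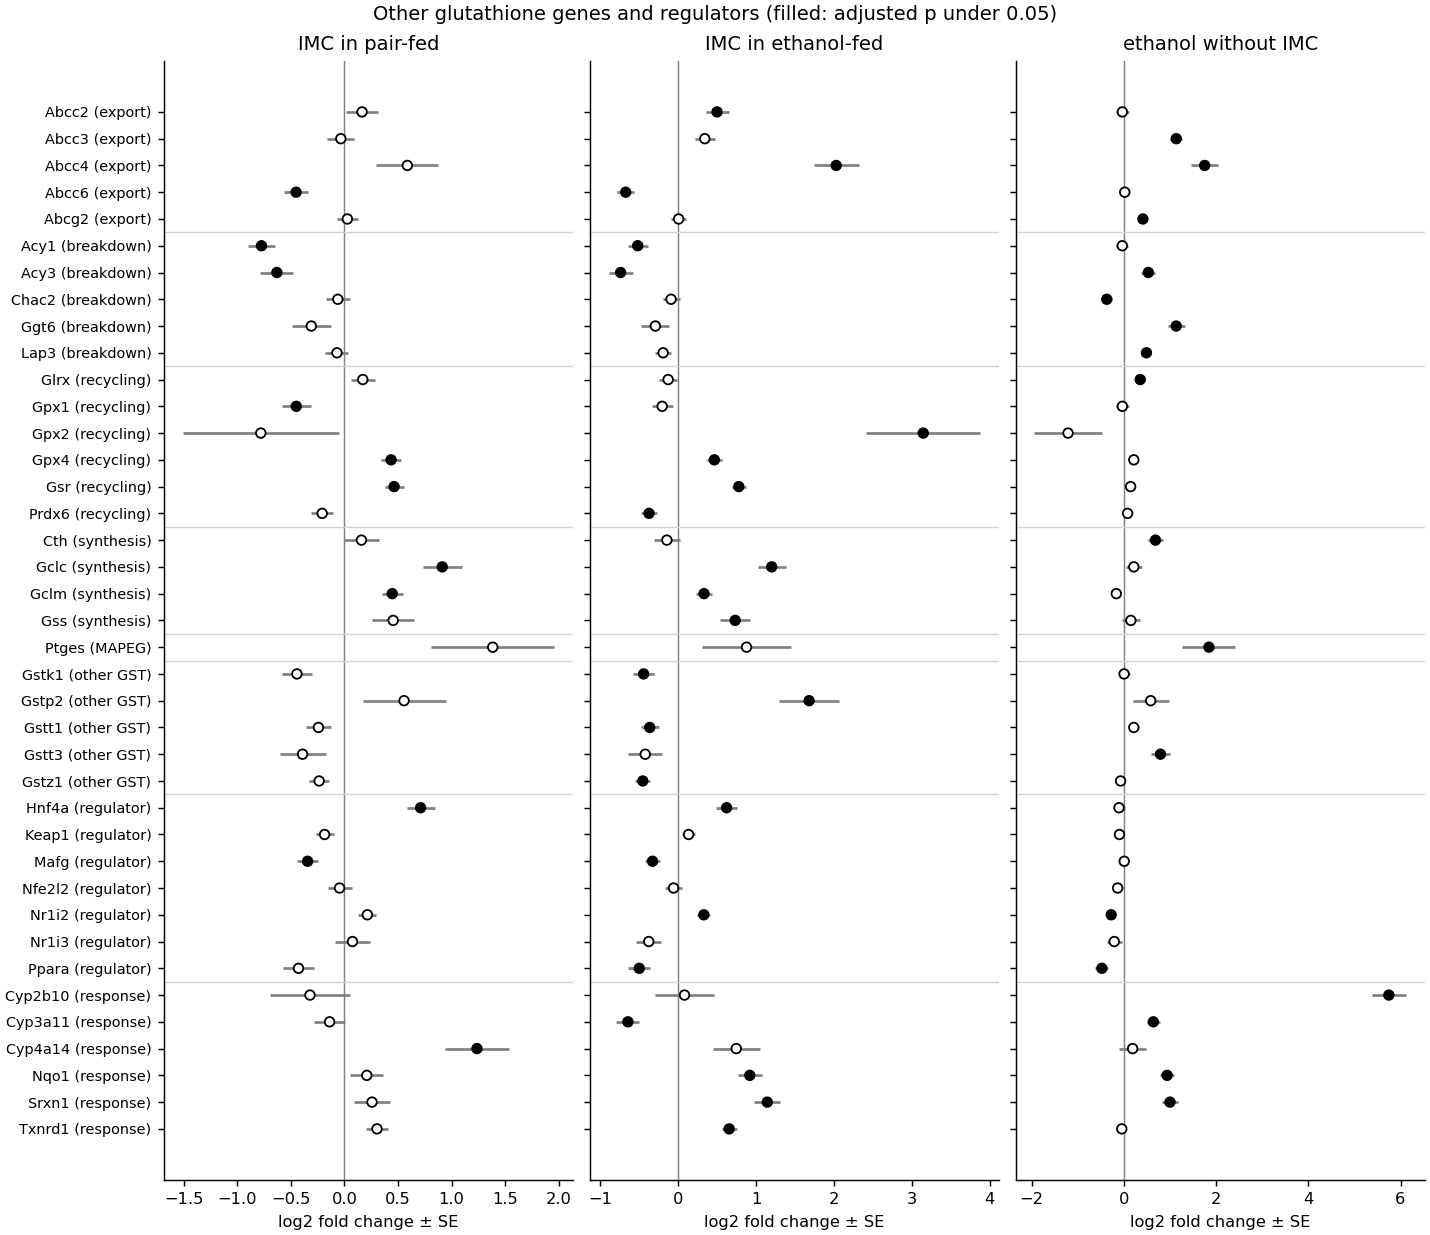
log2 fold change with its standard error (line) of the named genes of the 8 lists in 3 contrasts, grouped by list, each panel with its own horizontal range; filled points passed an adjusted p of 0.05 in limma and open points did not. Gclc, Gclm, Gsr and Gpx4 are filled to the right of 0 in both IMC panels, and Abcc4, Nqo1 and Srxn1 in the panels of IMC in ethanol-fed mice and of ethanol without IMC.

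Calls among markers of zones and cell types are given as descriptions, beside the shares of all genes called higher and lower. With IMC these shares were 4.32% and 5.16% in pair-fed mice and 10.4% and 11.1% in ethanol-fed mice. For ethanol they were 6.33% and 5.52% without IMC and 7.88% and 8.61% under IMC. Of 8 pericentral hepatocyte markers, which mark the zone around the central vein, Oat fell with IMC in pair-fed mice and Cyp2e1 and Oat fell in ethanol-fed mice, and their sum was 89004 to 114580.0 in Pair control, 72139 to 90824 in Pair IMC, 71752 to 89872 for EtOH control and 42819 to 71015 in EtOH IMC. The sum was thus lowest in the group in which 8 of the 10 members had their highest mean. Of 6 periportal markers Hsd17b13 rose and Ctsc and Cyp2f2 fell with IMC in ethanol-fed mice, with sums of 27775 to 36898 for EtOH control and 27031 to 32802 in EtOH IMC. Colec11 and Reln, 2 of 6 stellate cell markers, fell there too, with sums of 4789 to 5531 and 3188 to 4035. Of 6 leukocyte markers only Ptprc passed the filter, and it fell there, with sums of 177 to 232 and 90.7 to 133. In pair-fed mice Krt7 fell with IMC, 1 of 5 cholangiocyte markers tested, with sums of 710.0 to 1222 in Pair control and 616 to 699.5 in Pair IMC. Cela1 and Ctrb1 fell as well, the only pancreatic markers tested of 6, with sums of 125 to 157 and 72.1 to 88.5 and with Cpa1, Pnlip and Cpb1 at 0 in all libraries. Of 6 intestinal markers 3 were tested, Fabp2 fell with IMC in ethanol-fed mice, and Cdx1 and Cdx2 were at 0 in all libraries, with sums of 1108 to 1247 for EtOH control and 335 to 1441 in EtOH IMC. No Kupffer cell or endothelial marker was called with IMC within a diet, and their sums overlapped between IMC and control. With ethanol alone Rhbg, Cyp2f2 and the stellate cell markers Dcn and Lrat rose and Fgb and Lgals4 fell, and the stellate sums of 3353 to 4570.1 in Pair control lay below all those of EtOH control. With ethanol under IMC Rhbg, Clec4g, Des, Lrat, Hal and Hsd17b13 rose and Cyp2e1, Glul, Reln, Cyp2f2, Lgals4 and Ptprc fell. Apart from Hsd17b13, no marker of these lists was called higher with IMC within a diet, and their part in the members' values was not tested.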

How the data were processed

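Liver RNA of 16 mice, 4 per group, was taken from the expression table that the authors deposited, with groups as the labels give them. The authors trimmed reads with Trim Galore, checked them with FastQC, aligned them with STAR to mm10 with UCSC transcript annotation and normalized between lanes with edgeR, per the labels and the methods. The counting tool and how reads on near copies were counted are not given in the sources used here, and the labels describe paired-end reads of 100 bases where the methods describe single-end reads. The deposited signal values are read counts divided by a size factor of each library: 100% lay within 0.01 of whole reads, 1 read being worth 0.906 to 1.18. In library 15 of EtOH IMC 1 read was worth 1.01, so tests on reads were repeated with that library left out.

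The table held 27212 rows for 24082 genes, and each gene was used once. Values were rescaled by a median ratio over 13121 genes above 0 in all 16 libraries. The test covered the 12535 genes whose deposited value reached 10 in 4 or more libraries. It was run with limma 3.58.1 (R 4.3.3) on log2(value + 1), fitting the 4 group means and moderated variances that follow a trend on the mean. Tests were two-sided with Benjamini-Hochberg adjusted p-values over all those genes. A fold change on this scale understates that of low genes. Mice are taken as separate animals, and p-values measure the spread between these libraries. The fit was also run on simulated counts, with the same spread for all genes and changes in EtOH IMC alone. The members differed widely in spread, so nothing about them is read from that run. The members, the lists of other genes and the markers were chosen with earlier results of these data known. Named genes are the members, the 3 genes most like each class, up to 4 genes per list and contrast with the largest change among those past the threshold for IMC in either diet or ethanol alone, and Gclc, Gclm, Nfe2l2, Keap1, Nr1i3, Nqo1, Cyp2b10 and Abcc2. Gene positions and exon lengths are from GENCODE vM21, and promoters from RefSeq on GRCm38.p6. Gm3776 was left out of its list because its row is that of Gsta1. Gsta5 and Gstp3 were not analysed here, and the identity of the proteins was not computed.

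Alternatives were the values as deposited, quantile normalization, pseudocounts of 0.1 and 5, no filter, a mean of at least 100, only the libraries of the comparison, no trend, edgeR 4.0.16 with TMM or upper-quartile factors and DESeq2 1.42.0 on the recovered reads. Each library was also left out in turn. edgeR without library 15 was added after seeing the data. Reads carry no molecular identifiers. On recovered reads edgeR with TMM called 1155 genes for IMC in pair-fed and 2771 in ethanol-fed mice, against 1189 and 2693 with limma.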

Additional observations from a re-analysis of the deposited data

Results flagged for a closer look

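Among 204 groups of 4 libraries examined, over the members, the class sums and the named genes, 8 held a library whose gap to the nearest other exceeded the critical share of the range of the group in Dixon's test. Chance gives about 1 in 20, so 8 of 204 is no more than chance alone would give. The libraries below are listed as descriptions. Among the members this held for Gsta4 in Pair control, 427 in library 16 against 557 to 584 in the other three (gap 0.831 of the range). Without that library the log2 difference of Gsta4 with ethanol alone was 0.44 in place of 0.55.

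Library 13 of EtOH IMC stood above its group for 4 genes. Gclc was 10244 in library 13 against 6209 to 6664 in the other three (gap 0.887 of the range), Gsr was 1503 in library 13 against 1232 to 1258 in the other three (gap 0.902 of the range), Txnrd1 was 3245 in library 13 against 2427 to 2552 in the other three (gap 0.848 of the range), and Abcg2 was 671 in library 13 against 516 to 526 in the other three (gap 0.935 of the range). Without it Gclc still rose with IMC in ethanol-fed mice, by 1.03 (limma, adjusted p = 0.000935), as did Gsr by 0.71 (adjusted p = 0.000118) and Txnrd1 by 0.56 (adjusted p = 0.000823).

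Library 8 of Pair IMC stood above its group for Gstk1, 952 in library 8 against 719.9 to 739.9 in the other three (gap 0.914 of the range), and for Gstz1, 8206 in library 8 against 6433 to 6615 in the other three (gap 0.898 of the range). With all libraries neither passed the test for IMC in pair-fed mice (limma, adjusted p = 0.0518 for Gstk1 and 0.119 for Gstz1). Leaving out the library nearest to control enlarges the difference by construction, and the values were then, for Gstk1, a log2 value of -0.54 (limma, adjusted p = 0.0214) and, for Gstz1, -0.32 (limma, adjusted p = 0.0266). Nqo1 in Pair control was 159.6 in library 14 against 134 to 138 in the other three (gap 0.85 of the range).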

How the results depend on the processing

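No paired analysis was possible because the groups share no replicate number. No called value of a member changed sign under any alternative. With 1 library left out in turn, the members called numbered 1 to 2 for IMC in pair-fed mice (1 without library 6 of Pair IMC), 6 to 8 in ethanol-fed mice, 0 to 1 for their difference (1 without library 11 of EtOH IMC, Gm10639, which passed the filter only through groups in which it was high), 6 to 8 averaged over diets, 4 to 6 for ethanol alone and 8 to 9 under IMC. Under the other alternatives they numbered 2 to 3, 7 to 8, 0, 6 to 7, 4 to 7 and 8 to 9, the 7 for ethanol alone coming from the values as deposited, where 22.3% of genes were called higher in place of 6.33%. Of the 77 list genes, 6 to 16 were called for IMC in pair-fed mice (6 without library 4 or 6 of Pair IMC), 0 to 4 for the difference between diets (4 without library 11 and 2 without library 9 of EtOH IMC, 1 without library 16 of Pair control) and 10 to 18 for ethanol alone (10 without library 3 or 7 of EtOH control), against 11, 0 and 17. DESeq2 called 2 for the difference, the fit with no trend 11 for ethanol alone, and the values as deposited 23 for ethanol alone and 30 under IMC. The summed alpha class differed with ethanol under IMC by 0.64 on the log2 scale, and by 0.83 as deposited; the deposited values raise every ethanol contrast by the shift between diets. The cause of the other changes was not tested. Gm10639 rests on at most 30 reads per library outside EtOH IMC. The errors printed for it measure the spread between libraries, with no separate estimate of counting error.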

Other observations

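Over the 16 libraries the log2 levels of the members were positively correlated in all 45 pairs, from 0.323 between Gsta4 and Gstm2 to 0.972 between Gsta1 and Gm10639, and Gstm1 with Gstm3 (0.95) and with Gstp1 (0.937) came next. The libraries differ by group and near copies may share reads, so these are descriptions. In EtOH IMC, library 11 held the lowest value of 9 members and also the lowest of Cyp2b10, Abcc4, Nqo1 and Srxn1, but not of Gclm, whose value there was the highest of its group; over the 77 list genes it was the lowest for 24. Of reads on genes, Gsta3 held 0.127% ± 0.0181 in Pair control and 0.169% ± 0.0135 in EtOH IMC (SD, n = 4), where Gstm1 held 0.564%.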
